A study of Mus musculus with 50 samples.

Results

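The genes described here are Rack1, Fau, Atp5b and Atp5e, 4 of the 1000 gene targets of a CosMx panel. They were chosen by name as the panel's ribosome and ATP synthase genes, with their levels across cell groups, nuclear share, cell size and genotype already known from these data, so that values of those 4 kinds are given below as a description. CosMx spatial molecular imaging reads fluorescent probes in cycles on a tissue section, and each decoded spot is 1 transcript of 1 target that is then assigned to a segmented cell. The study used it on fixed liver sections to ask what loss of HIRA, a chaperone that deposits the histone variant H3.3, does to the cells of the ageing liver.

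Control areas came from wild-type C57BL/6 mice and HIRA KO areas from C57BL/6 mice with the HIRA fl/fl allele. Both groups had received AAV8-TBG-Cre, a virus whose Cre is driven by the hepatocyte promoter TBG, at 6 months of age, and both were collected 12 months later, at 18 months. The deletion was therefore aimed at hepatocytes alone, and since Hira is not among the panel's targets it could not be checked in these data. The labels give the genotype of each of the 50 fields of view but tie none of them to a mouse. The slide has 6 tissue areas, 3 per group, each an unbroken series of field numbers of the same genotype. The area was taken as the replicate, so p-values measure the spread between areas, except in the limma-voom alternative on fields of view. The Control areas lie in 1 column of the slide and the HIRA KO areas in the other, so genotype and slide column cannot be told apart.

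Of 52132 segmented cells, 49665 were kept, with 718991 to 1066387 gene counts per Control area and 1292256 to 1542205 per HIRA KO area. A count of 3946 for the highest of the 10 negative probes, which match no transcript, set the background, and 748 targets lay above it. Cells were clustered and a cluster was named from marker genes with the ending "-like", which gave 13752 hepatocyte-like cells, 10324 cells without a name and the rest in 9 other classes. Levels are given as counts per 1000000 gene counts of the same cells (CPM). A CPM of this assay depends on each target's probes, so levels are compared between cells and not between genes.

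Rack1 and Fau encode proteins of the small ribosomal subunit. RACK1 is a scaffold at the head of the subunit that binds signalling kinases, and FAU is made as a ubiquitin-like protein fused to a ribosomal protein that is then cut free. Atp5b encodes the catalytic beta subunit and Atp5e the small epsilon subunit of the soluble F1 part of the mitochondrial ATP synthase, which turns the proton gradient of the respiratory chain into ATP. Both machines are present in nearly every cell, and hepatocytes are known for their many mitochondria and for heavy synthesis of plasma proteins. Messages for ribosomal proteins typically start with a run of pyrimidines, the 5′ terminal oligopyrimidine tract, through which their translation is controlled together.

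The RefSeq genes lie on GRCm38.p6 at chr11:48800360-48806241 (Rack1, plus strand), chr19:6057947-6059524 (Fau, plus strand), chr10:128083307-128090388 (Atp5b, plus strand) and chr2:174461075-174464101 (Atp5e, minus strand). The positions of the panel's probes in these genes are not given in the sources used here. The RefSeq sequences around the annotated start are shown because the ribosomal and the ATP synthase genes differ there. Each runs from 80 bases before to 20 bases after the start, 5′ to 3′ on the strand of the gene, and the capitals mark the longest run of C and T with a base within 5 bases of the start.
Rack1, chr11:48800280-48800379, plus strand: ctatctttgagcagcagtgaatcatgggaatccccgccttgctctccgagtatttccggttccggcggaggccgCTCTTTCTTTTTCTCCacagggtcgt
Fau, chr19:6057867-6057966, plus strand: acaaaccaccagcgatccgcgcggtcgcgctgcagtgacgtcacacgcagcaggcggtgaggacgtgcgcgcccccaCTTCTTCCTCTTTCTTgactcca
Atp5b, chr10:128083227-128083326, plus strand: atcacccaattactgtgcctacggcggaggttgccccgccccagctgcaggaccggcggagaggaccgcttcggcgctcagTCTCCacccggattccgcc
Atp5e, chr2:174464082-174464181, minus strand: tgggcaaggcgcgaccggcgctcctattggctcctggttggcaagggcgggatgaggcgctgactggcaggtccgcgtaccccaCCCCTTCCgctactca

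The run was 16 bases long in both Rack1 and Fau, a length that 1.19% of the 32851 RefSeq promoters reached. It was 8 bases in Atp5e and 5 bases in Atp5b, lengths reached by 9.72% and 32.9% of promoters. Among the other ribosome and translation genes of the panel with a listed promoter, the run was 7 bases in Naca, 4 in Tpt1, 4 in Btf3 and at most 2 in Eif5a. Over the 300 bases of each promoter, on either strand, CCAAT occurred 5 times in Atp5b and 2 times in Atp5e and in neither ribosomal gene, and 37.4% of promoters held it. CCGGAA occurred 2 times in Rack1 and 1 time in Atp5e (14.9% of promoters), and TGACGTCA, a palindrome, occurred 1 time in Fau (1.79% of promoters). GGGCGG occurred 2 times in Fau, 2 times in Atp5b and 2 times in Atp5e (35.7% of promoters). Such a match is only a description of the sequence.

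All 4 genes were well measured for this panel. Cells held 12607 counts of Rack1, 19374 of Fau, 19787 of Atp5b and 13397 of Atp5e, which is 3.19, 4.91, 5.01 and 3.40 times the highest negative probe. Ranked by counts among the 1000 targets they stood 74th, 35th, 34th and 63rd. The mean negative probe lay between 363.9 and 453.3 CPM in the 6 areas, so part of every level below is background.

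Across cell classes the ribosomal pair and Atp5b had different profiles, and Atp5e varied least between classes. Rack1 and Fau were highest in monocyte/dendritic-like cells, the antigen-presenting cells marked by MHC class II genes, and next highest in T/NK-like cells. In CPM, hepatocyte-like cells stood at the bottom of the Rack1 order and near the bottom of the Fau order, which did not hold in counts per cell. Over all 6 areas Atp5b was highest in hepatocyte-like cells. For Atp5e they stood second, behind monocyte/dendritic-like cells, which were the top class of the ribosomal pair too. These ranks of hepatocyte-like cells rest on the HIRA KO areas. In Control, the Atp5b mean was 2979 CPM in cholangiocyte-like and 2703 CPM in hepatocyte-like cells, and hepatocyte-like cells (1723 CPM) stood behind monocyte/dendritic-like (2104) and B-lineage-like cells (1861) for Atp5e.

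Rack1 had a mean of 3396 ± 886 CPM (SD, n = 6 areas) in monocyte/dendritic-like cells, 2697 ± 341 in T/NK-like cells and 2204 ± 218 in cholangiocyte-like cells, the lining cells of bile ducts. Kupffer-like cells, the resident macrophages, had 1919 ± 87.8 CPM and B-lineage-like cells 1757 ± 509. The other classes lay between 1714 CPM in endothelial-like and 1449 ± 226 CPM in hepatocyte-like cells, each closer to its neighbour than their SDs, and the top pair of classes too differed by less than the larger SD. Fau had the same pair of classes at the top, with 5931 ± 1097 CPM in monocyte/dendritic-like, 4593 ± 680 in T/NK-like cells, ahead of 3220 ± 1183 in B-lineage-like cells. It was lowest in hepatocyte-like (2215 ± 489 CPM) and neutrophil-like cells (2153 ± 220), and from B-lineage-like cells downward each class differed from the next by less than the larger of their SDs. The lowest monocyte/dendritic-like area for Rack1 (2550 CPM) and for Fau (4791 CPM) lay above the highest hepatocyte-like area (1722 and 2790 CPM).

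Atp5b had 3394 ± 947 CPM in hepatocyte-like cells, 2873 ± 367 in cholangiocyte-like cells and 2675 ± 307 in monocyte/dendritic-like cells. Every other named class except B-lineage-like cells lay between 2170 and 2651 CPM, and B-lineage-like cells were lowest with 1476 ± 454 CPM. The step down to B-lineage-like cells was the only one in the Atp5b order that exceeded the larger SD of the neighbours. Atp5e varied least between classes, from 2144 ± 415 CPM in monocyte/dendritic-like and 2095 ± 498 in hepatocyte-like cells down to 1453 ± 455 in myofibroblast-like cells, and neighbouring classes in its order were all closer than their SDs. The smallest area sample of B-lineage-like cells had 7 cells, so that class rests on few counts. The mean negative probe was higher in hepatocyte-like cells (472.3 CPM) than in monocyte/dendritic-like (291.5) and B-lineage-like cells (201.7). In counts per cell, which are not scaled by the total, hepatocyte-like cells held 0.599 of Atp5b, 0.391 of Fau, 0.377 of Atp5e and 0.255 of Rack1, and monocyte/dendritic-like cells held 0.844 of Fau and 0.492 of Rack1. Stellate-like cells held fewer of both (0.273 and 0.179), as did endothelial-like, neutrophil-like and myofibroblast-like cells. Kupffer-like cells held more of both (0.433 and 0.278), as did T/NK-like and B-lineage-like cells. Cholangiocyte-like cells held 0.363 of Fau and 0.261 of Rack1.

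**Figure D1:**
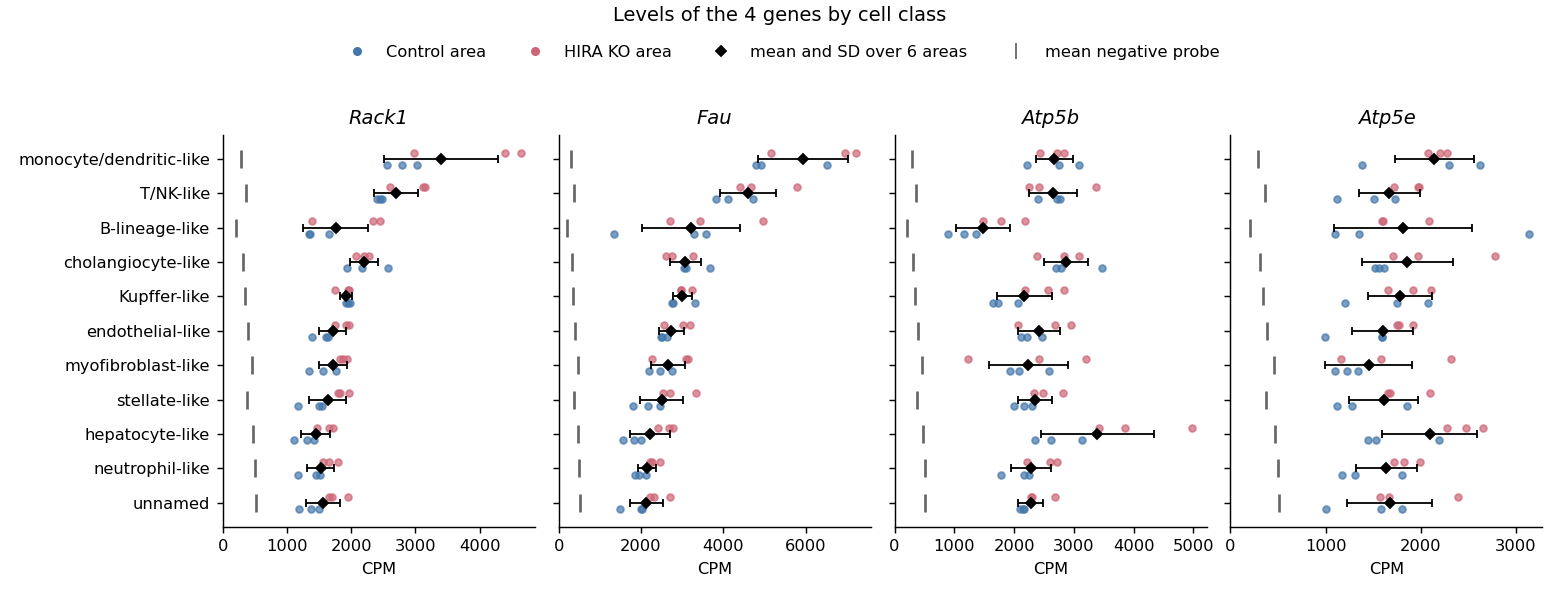
Level of each gene in CPM (x axis, linear, from 0) in the 10 named classes and the cells without a name (rows), with 1 point per tissue area, black diamonds for the mean with SD over the 6 areas, and grey ticks for the mean negative probe. Rack1 and Fau reach 3396 and 5931 CPM in monocyte/dendritic-like cells, whereas the mean of Atp5b over all areas is highest, at 3394 CPM, in hepatocyte-like cells, with 4086 CPM in HIRA KO and 2703 CPM in Control, below the 2979 CPM of Control cholangiocyte-like cells.

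The likeness of the 4 profiles was measured over the 7 classes for which each area held 100 cells or more, that is 42 points of class and area, among the 748 targets above background. This left out monocyte/dendritic-like cells, the top class of Rack1, Fau and Atp5e, which had 87 cells in their smallest area. Myofibroblast-like (63) and B-lineage-like cells (7) were left out too. The target most like Rack1 was Fau, with a Pearson r of 0.912, and the reverse held too. Next to Rack1 came Sh3bgrl3 (r = 0.860) and Crip1 (r = 0.712), and next to Fau came Sh3bgrl3 (r = 0.808) and Pfn1, an actin-binding protein (r = 0.755). Atp5b was most like the glutathione transferase target Gstp1/2 (r = 0.676) and the plasma protein genes Ttr (r = 0.649) and Vtn (r = 0.615). Atp5e was most like the glutathione peroxidase gene Gpx1 (r = 0.645), Vtn (r = 0.618) and Tpt1 (r = 0.613). Atp5b and Atp5e had r = 0.406 with each other, which put Atp5e 22nd for Atp5b, and across the pairs r lay between 0.0838 and 0.174. The points share areas, cells of 1 slide and total counts, so these values are a description.

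The same contrast showed within each area. The log2 difference in CPM between hepatocyte-like cells and all other named classes was below 0 in all 6 areas for Rack1 (mean -0.52 ± 0.16, SD) and for Fau (-0.58 ± 0.25). It was above 0 in all 6 areas for Atp5b (0.47 ± 0.29) and in 5 of 6 for Atp5e (0.27 ± 0.21), where Control area 3 had -0.10.

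Between genotypes, the levels in the sum of all kept cells were higher in HIRA KO areas for 3 of the 4 genes without overlap. Rack1 was at 1503, 1530 and 1563 CPM in Control areas 1, 2 and 3 and at 2244, 1723 and 2036 CPM in HIRA KO areas 1, 2 and 3. Fau was at 2190, 2175 and 2529 CPM in Control and 3503, 2799 and 3031 CPM in HIRA KO areas. The Control areas of Rack1 lay close to each other, and HIRA KO area 1 was highest for both ribosomal genes.
Atp5b was at 2393, 2354 and 2236 CPM in Control and 2696, 3566 and 3059 CPM in HIRA KO areas. Atp5e was at 1176, 1955 and 1597 CPM in Control and 1888, 2129 and 2305 CPM in HIRA KO areas. Control area 2 overlapped the HIRA KO range for Atp5e, and HIRA KO area 1 was the lowest of its group for both ATP synthase genes.

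**Figure D2:**
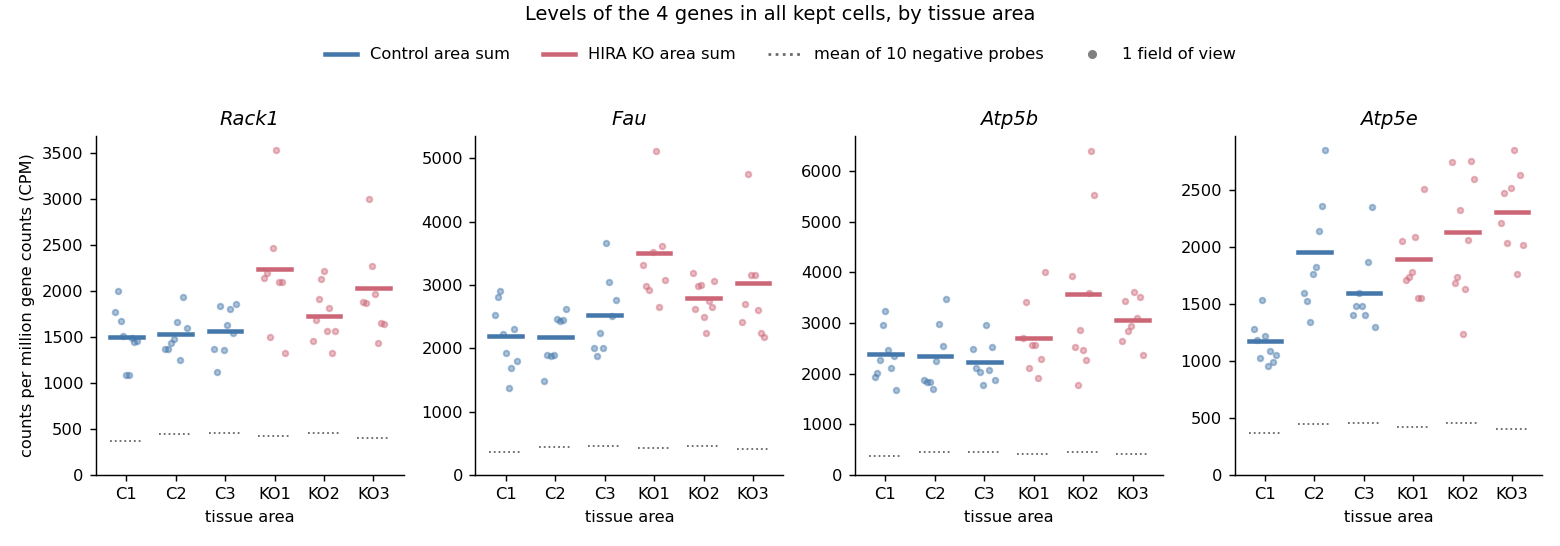
Level of each gene in CPM (y axis, linear, from 0) in all kept cells of the 3 Control (C1 to C3) and 3 HIRA KO areas (KO1 to KO3), with bars for the area sum, points for single fields of view and dotted lines for the mean negative probe. The bars of the HIRA KO areas lie above all Control bars for Rack1, Fau and Atp5b, and for Atp5e KO1 (1888 CPM) lies below C2 (1955 CPM).

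The ratio of the geometric means, HIRA KO over Control, was 1.30 for Rack1, 1.35 for Fau, 1.33 for Atp5b and 1.36 for Atp5e, and between 1.40 and 1.5 once the mean negative probe was taken off each level, a step chosen after seeing the data. Of the 998 targets with counts, 2.51% had all 3 HIRA KO areas above all 3 Control areas. Since genotype was part of how the 4 genes were chosen, nothing is read from 3 of 4 against that share. In edgeR's quasi-likelihood test over the whole panel the log2 fold changes were 0.50 ± 0.15 (SE) for Rack1, 0.55 ± 0.19 for Fau, 0.53 ± 0.19 for Atp5b and 0.54 ± 0.19 for Atp5e, which placed them between 21st and 28th of 998. These are relative to the panel after TMM scaling, which puts the median target at -0.01, whereas scaling by totals puts it at -0.125 and the 4 genes between 0.39 and 0.44. None of the 4 passed Benjamini-Hochberg adjustment (edgeR adjusted p = 0.571 for each), against 0.200% of the panel called. All 4 had an unadjusted edgeR p under 0.05, from 0.00567 to 0.0154, as had 73 of the 998 targets. DESeq2 called 10 targets, Rack1 alone of the 4 (DESeq2 adjusted p = 0.0458), and limma-voom on fields of view called 11 targets and 0 of the 4. The fields of 1 area share its tissue, and that fit took the area as a random block. Its p-values therefore draw on the spread between fields within an area too, here and in the fits below. With the slide row as a block edgeR called 17 targets, Rack1 and Atp5e among them (adjusted p = 0.0456 and 0.0415).

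In such sums a larger share of cells rich in a transcript and more of it per cell cannot be told apart. The share of hepatocyte-like cells was 14.7%, 33.8% and 27.4% in Control and 20.1%, 31.8% and 41.3% in HIRA KO areas, and that of cells without a name 17.3% to 31.3% in Control and 6.29% to 23.4% in HIRA KO areas, whose part in these levels was not tested.

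Single fields of view overlapped widely. Rack1 ran from 1083 to 2001 CPM over the 25 Control fields (median 1492) and from 1325 to 3533 CPM over the 25 HIRA KO fields (median 1884). Fau ran from 1365 to 3669 CPM (median 2241) in Control and from 2180 to 5123 CPM (median 2991) in HIRA KO fields. Of the 25 HIRA KO fields, 24 lay above the Control median for Fau, 24 for Atp5e, 23 for Atp5b and 21 for Rack1. The highest Atp5b fields, at 6402 and 5535 CPM, both lay in HIRA KO area 2, ahead of 4013 CPM in the next.

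In hepatocyte-like cells, the cells in which TBG drives Cre, all 4 genes were higher in every HIRA KO area than in any Control area. Fau was at 1569, 2012 and 1829 CPM in Control and at 2790, 2681 and 2411 CPM in HIRA KO areas. Atp5b was at 3137, 2615 and 2356 CPM in Control and at 3862, 4980 and 3415 CPM in HIRA KO areas. The groups did not overlap for either gene, and the 3 HIRA KO areas of Atp5b differed among themselves by more than the gap between the groups.
Atp5e was at 1442, 2196 and 1532 CPM in Control and at 2278, 2651 and 2475 CPM in HIRA KO areas. Rack1 was at 1110, 1420 and 1311 CPM in Control and at 1722, 1470 and 1662 CPM in HIRA KO areas. For both, Control area 2 was the highest Control area and lay just under the lowest HIRA KO area.

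Since these differences were known when the genes were chosen, their fitted values describe them and test nothing new. The log2 fold change in hepatocyte-like cells was 0.67 ± 0.15 for Fau (SE, edgeR adjusted p = 0.0220). The values were 0.73 ± 0.18 for Atp5b (adjusted p = 0.0554), 0.65 ± 0.16 for Atp5e (adjusted p = 0.0501) and 0.46 ± 0.13 for Rack1 (adjusted p = 0.0909), so that 1 of 4 lay under the threshold, beside 1.10% of 998 targets called and 3.21% whose HIRA KO areas all lay above the Control areas. Those 11 called targets were 8 higher and 3 lower in HIRA KO, and 7 higher and 29 lower when scaled by totals, under which Fau alone of the 4 still passed (adjusted p = 0.0425). With the slide row as a block edgeR called 20 targets and 3 of the 4 genes, Fau (adjusted p = 0.0231), Atp5e (0.0231) and Atp5b (0.0442) but not Rack1 (0.0686). The call for Fau was lost when any of 4 areas was left out, areas 1 and 2 of Control and areas 1 and 2 of HIRA KO (adjusted p from 0.0955 to 0.114). DESeq2 and limma-voom on fields of view each called all 4 genes, with adjusted p up to 0.0193 and 0.0142, among 25 and 47 targets called. When the clusters were made without the 4 genes none was called by edgeR (adjusted p from 0.118 to 0.184), with log2 fold changes between 0.42 and 0.69. In that fit 4 of 4 had an unadjusted edgeR p under 0.05, as had 102 targets of the panel.

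Different clusters held most hepatocyte-like cells in the groups. Cluster 2, led by the nuclear RNA Neat1 and by Vegfa, held 64.6% ± 5.77 (SD, n = 3) of them in Control and 19.8% ± 7.42 in HIRA KO areas. Cluster 0, led by the plasma protein genes Ttr and Apoa1, held 21.6% ± 4.96 in Control and 55.4% ± 4.38 in HIRA KO areas. Clusters 10 and 12 held the rest, and cluster 10, which has Atp5b among its leading genes, had as few as 3 cells in a Control area and is not compared.

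Within cluster 0 the ATP synthase genes were not higher in HIRA KO. Atp5b was at 5498, 4252 and 3471 CPM in Control and at 4136, 4230 and 3217 CPM in HIRA KO areas, and its log2 fold change was -0.19 ± 0.20 (edgeR adjusted p = 0.882). Atp5e was at 2037, 3476 and 2199 CPM in Control and at 2584, 2666 and 2418 CPM in HIRA KO areas (log2 fold change -0.05 ± 0.19, adjusted p = 0.984). The groups overlapped for both genes.
Within cluster 2 Atp5b was at 2205, 2064 and 2099 CPM in Control and at 2468, 2660 and 2547 CPM in HIRA KO areas, without overlap, with a log2 fold change of 0.31 ± 0.17 (adjusted p = 0.815). Atp5e had 0.25 ± 0.16 there (adjusted p = 0.892). For the ribosomal pair the values within clusters 0 and 2 were 0.33 ± 0.17 and 0.27 ± 0.15 for Rack1 and 0.23 ± 0.19 and 0.34 ± 0.16 for Fau, none of which passed (adjusted p from 0.640 to 0.856). These fits within a cluster were chosen after seeing the data, the 4 genes took part in making the clusters, and how far the mix of clusters accounts for the values over all hepatocyte-like cells was not tested.

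**Figure D3:**
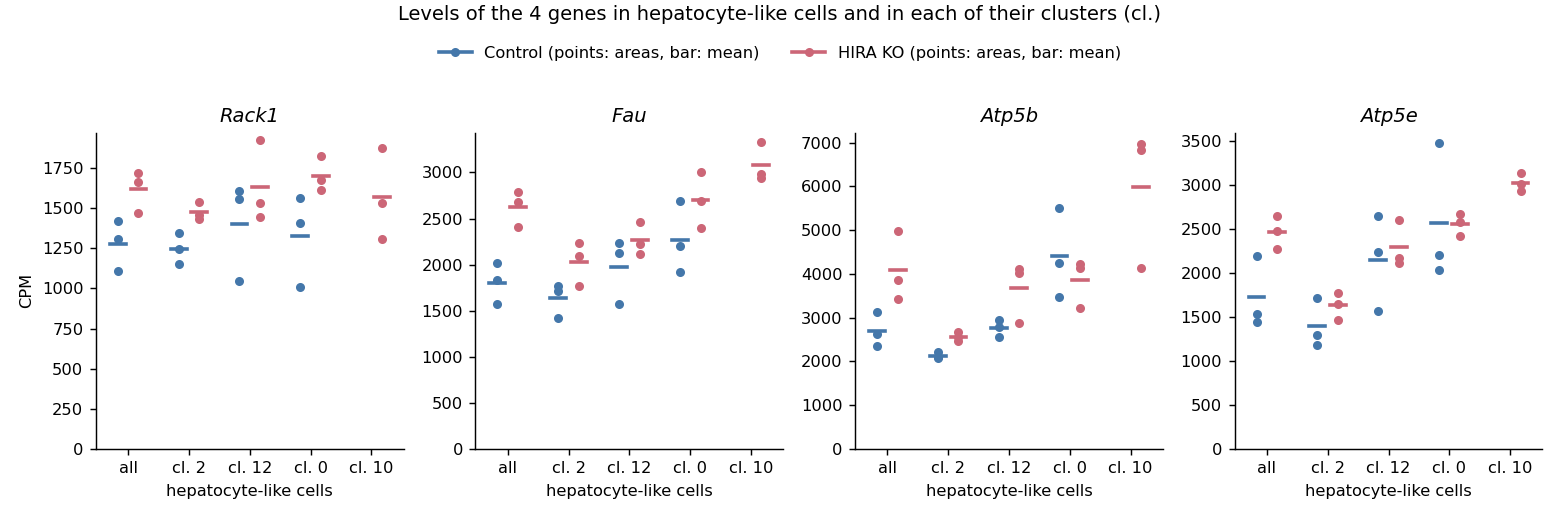
Level of each gene in CPM (y axis, linear, from 0) in all hepatocyte-like cells and in their clusters 2, 12, 0 and 10, with 1 point per area and bars for the mean of 3 areas (cluster 10 is drawn for HIRA KO only, since a Control area had as few as 3 such cells). Atp5b separates the groups over all hepatocyte-like cells (means 2703 and 4086 CPM) but not within cluster 0 (4407 and 3861 CPM).

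In the other named classes, which the hepatocyte promoter is not meant to reach, the 4 genes were measured on the same sections. These sums pool classes of unlike level, with Fau means from 2153 CPM in neutrophil-like to 5931 CPM in monocyte/dendritic-like cells. The mix of these classes in each area is not given, and its part in the pooled levels was not tested. Rack1 was at 1852, 1735 and 1790 CPM in Control and at 2597, 2000 and 2510 CPM in HIRA KO areas. Fau was at 2888, 2612 and 3145 CPM in Control and at 4148, 3134 and 3832 CPM in HIRA KO areas. Control area 3 and HIRA KO area 2 met for Fau, whereas the Rack1 areas were apart.
Atp5b was at 2275, 2128 and 2194 CPM in Control and at 2367, 2653 and 2682 CPM in HIRA KO areas. Atp5e was at 1188, 1728 and 1645 CPM in Control and at 1814, 1824 and 2097 CPM in HIRA KO areas. Both were apart, as were 2.91% of targets in the same direction.
The log2 fold changes were 0.50 ± 0.18 (SE) for Rack1, 0.46 ± 0.23 for Fau, 0.44 ± 0.18 for Atp5e and 0.32 ± 0.18 for Atp5b. edgeR called 0 of the 4 (adjusted p from 0.624 to 0.772), beside 0.601% of the panel. The unadjusted edgeR p was under 0.05 for 2 of the 4 (Rack1 and Atp5e) and for 66 of the 998 targets. DESeq2 and limma-voom called 0 of the 4 as well.

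By class, Rack1 in T/NK-like cells was at 2398 to 2476 CPM in Control and 2606 to 3144 CPM in HIRA KO areas, and in stellate-like cells, the matrix-producing cells of the sinusoid wall, at 1166 to 1537 and 1800 to 1970 CPM. In Kupffer-like cells its means were 1952 CPM in Control and 1887 CPM in HIRA KO areas, and in cholangiocyte-like cells 2224 and 2184 CPM, with overlapping areas in both. Fau in cholangiocyte-like cells had 3279 CPM in Control and 2873 CPM in HIRA KO areas. Atp5b in Kupffer-like cells was at 1653 to 2062 CPM in Control and 2183 to 2829 CPM in HIRA KO areas, and in monocyte/dendritic-like cells its means were 2687 and 2663 CPM. The cells without a name had Rack1 at 1194 to 1499 CPM in Control and 1649 to 1943 CPM in HIRA KO areas.

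Cell group and genotype were part of how the 4 genes were chosen, so the next test describes levels already known and lends no independent support. Whether the genotype difference was larger in hepatocyte-like than in other cells was asked of the difference within each area. HIRA KO minus Control, that difference was 0.37 for Atp5b, 0.20 for Atp5e, 0.19 for Fau and -0.05 for Rack1 on the log2 scale. For Atp5b the 3 Control areas had 0.46, 0.30 and 0.10 and the 3 HIRA KO areas 0.71, 0.91 and 0.35, which overlap. Single areas moved these values widely, to 0.24 for Atp5b and 0.059 for Fau without HIRA KO area 2 and to 0.057 for Atp5e without Control area 3. None of the 4 passed an exact permutation test, two-sided (p from 0.200 to 0.800, adjusted over the 4 genes from 0.667 to 0.800), and with 3 areas against 3 the smallest possible p is 0.1.

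The ratio of the ribosomal to the ATP synthase counts, which does not depend on the total, did not separate the groups. Genotype was part of how these genes were chosen, so the p-values of the ratio are a description too. The log2 ratio of Rack1 and Fau over Atp5b and Atp5e in all kept cells was 0.05, -0.22 and 0.09 in Control and 0.33, -0.33 and -0.08 in HIRA KO areas. HIRA KO areas 1 and 2 were the highest and the lowest of all 6. The difference of the means was -0.0048 (exact permutation test, two-sided, p = 1). In hepatocyte-like cells the ratio was -0.52 ± 0.23 (SD, n = 3) in Control and -0.62 ± 0.23 in HIRA KO areas (difference -0.10, exact permutation p = 0.600), and in the other named classes 0.33 ± 0.14 and 0.43 ± 0.25 (difference 0.10, exact permutation p = 0.600).

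The wider pathway was read from gene lists. All 7 targets of the ribosome and translation list, which holds Rack1 and Fau, had a log2 fold change above 0 in hepatocyte-like cells, with a median of 0.47 against -0.01 over all targets tested. All 7 lay above the highest negative probe, whereas the targets tested include many that did not. The median over targets above it alone is not given. In hepatocyte-like cells 1 of 7 was called, Fau, beside 1.10% of all targets, and 0 of 7 were called in all kept or in other cells, beside 0.200% and 0.601%. Rack1 and Fau were chosen with these values known, so the count is not independent of the choice. The other lists had medians above that of all targets too in hepatocyte-like cells. These were 0.34 for ATP synthase and oxidative phosphorylation, which holds Atp5b and Atp5e (3 of 4 above 0), 0.20 for glycolysis (3 of 4) and 0.21 for other housekeeping (7 of 11). Tpt1, which encodes a translationally controlled protein, had 6300 CPM in Control and 9438 CPM in HIRA KO hepatocyte-like cells (adjusted p = 0.136). Of the 4 targets for ATP synthase and oxidative phosphorylation 0 passed in any of the 3 comparisons, and the complex-associated Ndufa4l2 had 1016 CPM in Control and 946 CPM in HIRA KO hepatocyte-like cells (adjusted p = 0.978). Of the 4 glycolysis targets 0 passed, with Ldha, which makes lactate, at 2340 and 3085 CPM (adjusted p = 0.146) and Tpi1 at 2692 and 2731 CPM (adjusted p = 0.784). Of 11 other housekeeping targets 3 were called in hepatocyte-like cells, again beside 1.10% of all targets. The lists too were chosen with earlier results of these data known, so nothing is read from that count. Hsp90ab1, a chaperone, rose from 1849 to 2752 CPM (adjusted p = 0.0166) and Neat1 fell from 16212 to 7369 CPM (adjusted p = 0.0222), as did Hspb1, a small heat shock protein, from 1300.2 to 797 CPM (adjusted p = 0.0220), which is named only because it is the remaining call.

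Inside cells, transcripts of all 4 genes lay less often in the nucleus than those of the panel as a whole. The nuclear share of Rack1 was 45.8%, 40.9% and 43.8% in Control areas 1, 2 and 3 and 38.7%, 39.3% and 33.2% in HIRA KO areas 1, 2 and 3. Atp5e had 42.9%, 31.7% and 37.6% in Control and 31.9%, 31.1% and 26.8% in HIRA KO areas. Over all targets the share was 52.2%, 52.8% and 47.1% in Control and 46.8%, 47.3% and 42.4% in HIRA KO areas, so that each of the 4 genes lay below it in all 6 areas, and HIRA KO area 3 was lowest for every gene and for the panel.
Fau averaged 35.6% ± 3.03 (SD, n = 6) and Atp5b 36.4% ± 2.62. Ranked from the lowest share among the 748 targets, Atp5e stood 12th, Fau 20th, Atp5b 27th and Rack1 56th, and the median target was at 50.5%. Neat1, an RNA kept in the nucleus, was last with 89.1%. The negative probes, which mark no transcript, had a nuclear share of 28.6% ± 2.19.

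The nuclear share differed between classes. In hepatocyte-like cells, in which the nucleus filled 20.3% of the cell area, it was 28.99% ± 5.82 for Fau, 28.6% ± 7.18 for Atp5e, 31.3% ± 3.22 for Atp5b and 36.5% ± 8.10 for Rack1, against 46.2% ± 5.99 over all targets. In T/NK-like cells, with 26.6% of the area in the nucleus, Rack1 was at 55.7% ± 3.86, against 54.6% ± 2.37 over all targets, and lay below them in only 2 of 6 areas. B-lineage-like cells had the largest part of their area in the nucleus (33.4%) but not the highest share over all targets (50.9% ± 9.08). Rack1 had the highest nuclear share of the 4 in hepatocyte-like, Kupffer-like, endothelial-like and stellate-like cells, where it still lay below all targets in all 6 areas. The cytoplasm held 40.4% of Rack1, 41.97% of Fau, 43.97% of Atp5b and 45.9% of Atp5e transcripts, against 36.1% over all targets, and the membrane compartment 19.4%, 22.4%, 19.6% and 20.5%, against 15.9%.

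Transcripts of the 4 genes were also found outside segmented cells more often than most. Of all Atp5e transcripts 8.96% lay outside cells, the 15th highest share among the 748 targets, followed by 8.51% for Fau (40th), 8.23% for Atp5b (63rd) and 8.16% for Rack1 (73rd), while 6.89% of all decoded transcripts did. Atp5e and Fau exceeded the share over all targets in all 6 areas and Rack1 and Atp5b in 5 of 6. The negative probes had a higher share outside cells than the mean of any of the 4 genes, at 9.83% ± 2.07 in Control and 10.05% ± 1.56 in HIRA KO areas (SD, n = 3 each). The part of background in the shares of the 4 genes was not tested.
Rack1 was at 5.97%, 7.33% and 7.75% in Control and at 9.60%, 6.21% and 10.1% in HIRA KO areas, and the groups overlapped. HIRA KO minus Control was 1.63 percentage points for Rack1, 1.46 for Fau, 1.44 for Atp5b and 1.02 for Atp5e, and none passed (exact permutation test, two-sided, p from 0.200 to 0.600, adjusted over the 4 genes 0.600). Without Control area 1 the difference was 0.391 for Atp5b and -0.15 for Atp5e, and for Rack1 it ran from 0.89 to 2.85, its values when area 3 or area 2 of HIRA KO was left out. The share over all targets moved along, from 6.29% ± 1.29 in Control to 7.40% ± 1.18 in HIRA KO areas (SD, n = 3 each).

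**Figure D4:**
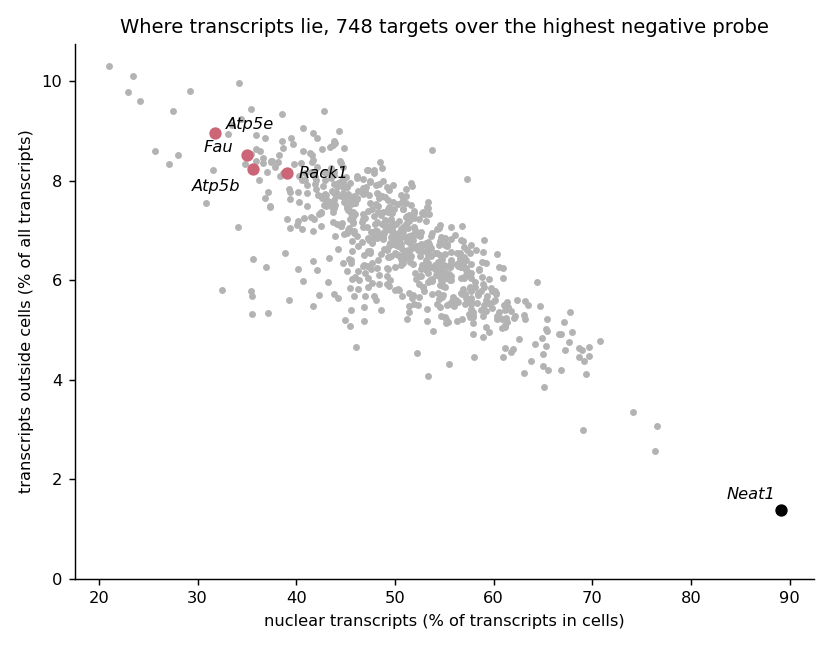
Share of in-cell transcripts that lie in the nucleus (x axis, %) and share of all transcripts outside cells (y axis, %, from 0) for the 748 targets above the highest negative probe, over all areas (grey), with the 4 genes in red and Neat1 in black. The 4 genes lie at nuclear shares of 31.8% to 39.1% and outside shares of 8.16% to 8.96%, at the cytoplasmic end, opposite Neat1.

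Hepatocyte-like cells were split within each tissue area into 5 size groups of equal cell number by cell area, since liver cells differ widely in size. From the smallest to the largest size group the cell area grew 5.37-fold and the counts of all targets per cell 5.41-fold, as means over 6 areas. Counts per cell grew 5.87-fold for Fau, 5.15-fold for Atp5e, 5.13-fold for Rack1 and 4.24-fold for Atp5b. Atp5b therefore had a lower level per count in large cells, at 3261 ± 1029 CPM in the largest and 4239 ± 1192 CPM in the smallest size group (SD, n = 6), and 0 of 6 areas were higher in the largest size group. Fau went from 2178 ± 606 to 2314 ± 469 CPM and was higher in the largest size group in 3 of 6 areas, Rack1 in 2 and Atp5e in 1.
In the largest size group the HIRA KO areas lay above the Control areas for each gene without overlap, with means of 4031 against 2491 CPM for Atp5b, 2695 against 1933 for Fau, 2470 against 1747 for Atp5e and 1598 against 1268 for Rack1. In the smallest size group Atp5b had 4946 against 3531 CPM with overlapping areas. The areas also overlapped in size groups 2, 3 and 4 for Rack1, in size group 2 for Atp5b and in size group 4 for Atp5e. The share of all targets without overlap was not computed by size group, so nothing is read from these counts of genes. Over all hepatocyte-like cells 3.21% of targets had every HIRA KO area above the Control areas.

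Position along the lobule was read from the distance to cells rich in Glul, glutamine synthetase, which marks the hepatocytes next to the central vein. The 3% of hepatocyte-like cells of an area with the highest Glul share were the reference, and the other cells were split into 4 distance bands of equal cell number, of which the nearest was compared with the farthest, with Glul left out of the total. Atp5e was higher near these cells in all 6 areas, by 0.28, 0.37 and 0.72 on the log2 scale in Control and by 0.04, 0.14 and 0.19 in HIRA KO areas. Its mean difference was 0.29 ± 0.24 (SD, n = 6, exact sign-flip permutation test, two-sided, p = 0.0312, the smallest that 6 areas can give), which did not pass after adjustment over the 4 genes (adjusted p = 0.125). The 3 Control areas all had a larger difference than the 3 HIRA KO areas, a contrast that was not tested. The bands did not span equal distances in the areas. In the farthest band the median distance was 2464, 3538 and 3252 pixels in Control and 1755, 1560 and 3820 pixels in HIRA KO areas, whose part in the contrast was not tested.
Fau differed by 0.16 ± 0.20 (higher nearest in 4 of 6 areas, exact sign-flip permutation p = 0.125) and Atp5b by 0.14 ± 0.13 (5 of 6 areas, exact sign-flip permutation p = 0.0938), with adjusted p = 0.167 for both. Rack1 differed by -0.01 ± 0.12 (3 of 6 areas, exact sign-flip permutation p = 0.938). Cluster 12, led by Glul, Sod1 and Apoc1, made up 16.45% ± 10.02 of the nearest and 4.51% ± 3.93 of the farthest band (SD, n = 6), and its part in these differences was not tested.

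**Figure D5:**
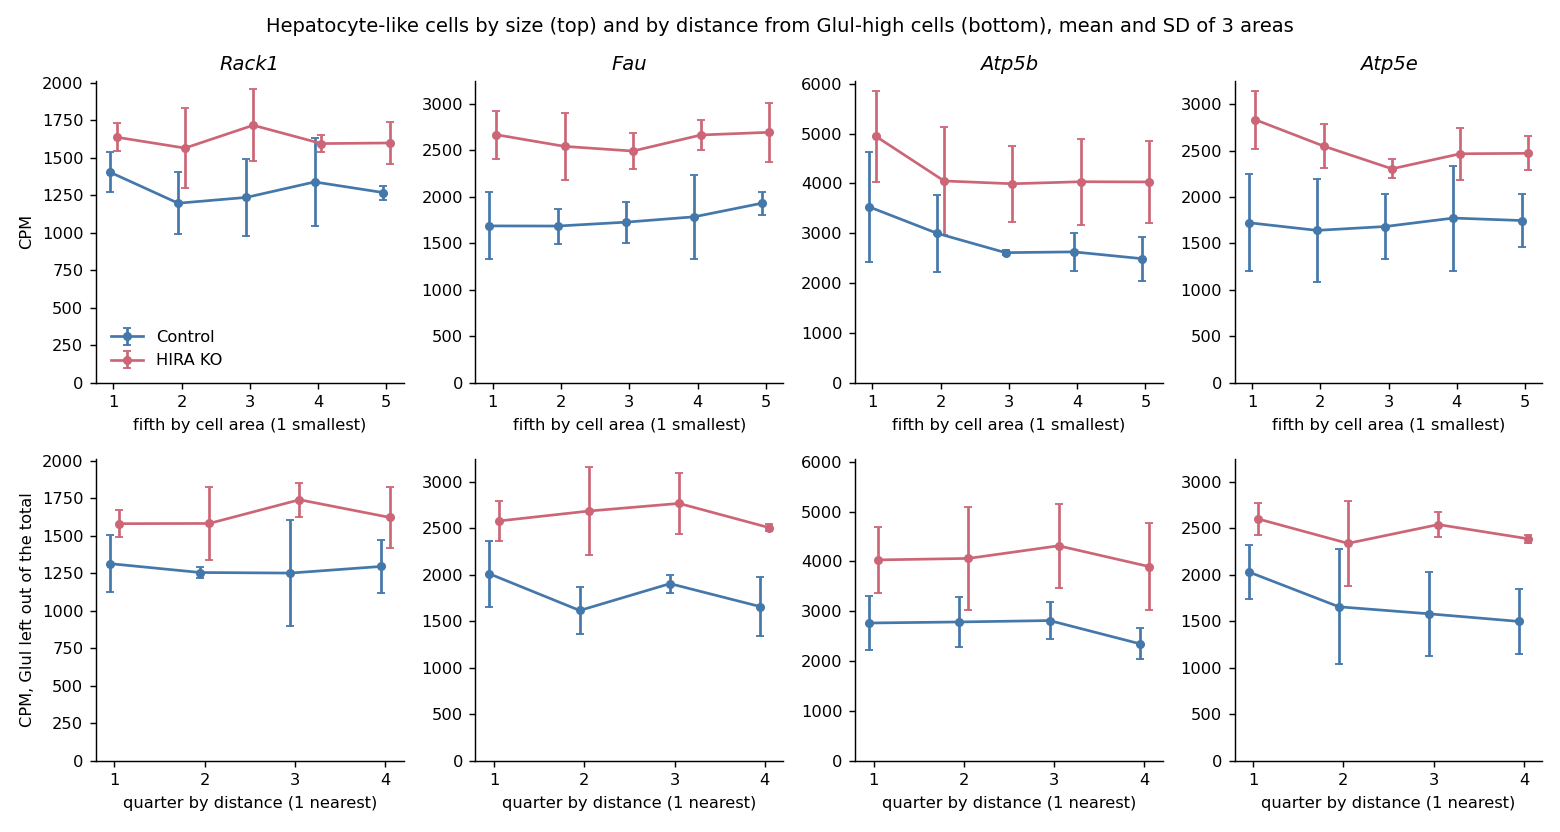
Level of each gene in CPM (y axes, linear, from 0) in hepatocyte-like cells by size group (top, group 1 smallest) and by distance band from Glul-high cells (bottom, band 1 nearest), with points for the mean and bars for the SD of 3 areas per genotype. Atp5b is highest in the smallest cells (3531 CPM in Control, 4946 CPM in HIRA KO), and Atp5e goes from 2033 to 1499 CPM from the nearest to the farthest band in Control and from 2604 to 2389 CPM in HIRA KO areas.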

How the data were processed

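Transcripts of 1000 targets and 10 negative probes were imaged on 1 slide of fixed liver with the CosMx instrument, and the authors deposited whole-number counts per segmented cell, a list of decoded transcripts with their compartment, and cell metadata. These counts are not normalized, and the version of the decoding and segmentation software is not given in the sources used here. The 4 genes, the gene lists and the tests were chosen with earlier results of these data known.

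Cells with at least 20 counts and an area up to 5 times the geometric mean (10967 px²) were kept, which removed 2215 and 252 cells. Pearson residuals of the counts (theta 100, limited to 10 either way) were reduced to 30 components, joined to 20 neighbours and clustered with leidenalg 0.10.2 (resolution 1.6) into 19 clusters. A cluster took the name of the class with most markers among its top 10 genes by fold, if at least 3 of that class were raised by over 0.5 on the log2 scale. No doublet caller was run, so a segmented cell may hold transcripts of a neighbour. The median cell held 88 to 147 counts by area.

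Counts were summed per tissue area and tested with edgeR 4.0.16 (quasi-likelihood, TMM, 998 targets, Benjamini-Hochberg) in R 4.3.3, without a block, after a test on simulated data. DESeq2 1.42.0, limma 3.58.1 (voom on fields of view, with the area as a random block), other scalings, cell filters, clusterings and leaving out each area were alternatives, and the fits within cluster 0 or 2 were added after seeing the data. Differences between areas in shares, ratios and distance were tested by exact permutation over areas. The targets named beside the 4 genes are list members above the highest negative probe (at most 8 a list) and the 3 targets most like each gene over classes and areas, on log2(CPM + 100), and 1 list member is not reported here. Sequences are from RefSeq (GRCm38.p6).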

Additional observations from a re-analysis of the deposited data

How the results depend on the processing

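The higher level of Fau in hepatocyte-like cells of HIRA KO areas kept its direction under all 17 alternatives and lay under the threshold in 9 of them, which describes a difference known when the gene was chosen. The call was lost with at least 50 counts per cell (adjusted p = 0.0685), with clusters made without the 4 genes, within cluster 0 or 2 and without 4 of the 6 areas. Over the 3 comparisons and 4 genes, 178 of 180 alternative values were above 0, the exceptions being Atp5b (-0.19) and Atp5e (-0.047) within cluster 0. The number of targets called in all kept cells was 2, and it was 10 with DESeq2, 1 with scaling by totals, 17 with the slide row as a block and 11 with limma-voom, and from 1 to 3 when an area was left out (1 without Control area 2). In hepatocyte-like cells it was 11, and 25, 36, 20 and 47 under the same alternatives, 3 with clusters made without the 4 genes, 0 in cluster 0 and 2 in cluster 2, and from 1 (without Control area 2) to 24 (without Control area 3) when an area was left out. In other named cells it was 6, and 11, 3, 10 and 16 under the same 4 alternatives, 3 with totals that leave out the 20 largest targets, and from 2 (without Control area 2) to 7 when an area was left out. None of the tests over areas that changed sign had passed. The difference in the share outside cells of Atp5e was -0.093 relative to all targets and from -0.15 (without Control area 1) to 1.72 when an area was left out. The ribosome to ATP synthase ratio difference was 0.00052 with no filter on cells and from -0.18 to 0.15 when an area was left out. In hepatocyte-like cells it was 0.0065 for Fau over Atp5e, 0.029 without nuclear transcripts, and from -0.22 to 0.035 when an area was left out. The hepatocyte-like minus other difference of Rack1 ran from -0.17 to 0.050, that of Fau from 0.059 to 0.34, that of Atp5b from 0.24 to 0.52 and that of Atp5e from 0.057 to 0.28 when an area was left out. The share outside cells of Rack1 then differed by 0.89 to 2.85 points, that of Fau by 1.02 to 2.24 and that of Atp5b by 0.39 to 2.10. The Rack1 distance difference ran from -0.029 to 0.039 when an area was left out and was 0.026 with the top 5% of cells by Glul, 0.039 with 3 distance bands and 0.088 with clusters made without the 4 genes. The cause of these changes was not tested. The labels give the groups no shared replicate numbers, so the slide row was the only block fitted between areas. The smallest samples in an area were 3 cells of hepatocyte-like cluster 10 and 7 B-lineage-like cells.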
